A study of Mus musculus with 21 samples.

Results

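The genes described here carry calcium through the beat of the mouse heart. They are 10 genes, Ryr2, Atp2a2, Pln, Casq2, Slc8a1, Cacna1c, Camk2d, Hrc, Jph2 and Trdn, taken by symbol from the 19096 genes of the deposited gene matrix. All 10 were found, and all 10 passed the filter on low counts. RNA was sequenced from freeze-clamped hearts of 21 male C57BL/6NJ mice, aged 8 to 10 weeks when they were assigned to a diet. The study joined an obesity-inducing diet with renin-driven high blood pressure to model HFpEF, heart failure in which the ejection fraction is preserved, and set this against each hit alone. The chow control group held 4 hearts from mice on chow, named novirus in the sample labels and null vector (control) in the series description. The chow Renin group held 6 hearts from mice on chow given AAV-Renin, an adeno-associated virus carrying renin, by retro-orbital injection. The HFD control group held 6 hearts from mice on a high-fat diet (HFD, 60% of energy as fat), with the same novirus or null vector label. The HFD Renin group held 5 hearts from mice given both the HFD and AAV-Renin. Diets lasted 10 weeks and hearts were collected 6 weeks after injection. The vector's promoter, the tissue it targets and the heart chambers taken are not given in the sources used here. Ren1 held at most 5 estimated reads in any heart, so heart RNA gave no check of the Renin labels.

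In each beat, calcium entering through the L-type channel opens ryanodine receptors on the sarcoplasmic reticulum (SR), the internal calcium store, and the released calcium starts contraction. Relaxation follows when the SR pump takes calcium back up and the sodium-calcium exchanger moves the rest out of the cell. Phospholamban restrains the pump, calsequestrin and the histidine-rich calcium binding protein hold calcium inside the store, junctophilin holds the store against the t-tubule, and CaMKII phosphorylates several of these proteins.

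Library totals ran from 18.7 to 29.3 M estimated reads (M, mega reads). Chow control libraries held 18.7 to 21.4 M and the other groups 22.8 M or more, so depth and the chow control group cannot be told apart. The 10 genes took 1.47% to 2.33% of a library's reads, and the lowest of these shares was in HFD control replicate 6. That library had the lowest level of all 21 for Atp2a2, Casq2, Jph2, Ryr2, Camk2d and Slc8a1. Replicate 6 of chow Renin had the highest Ryr2, Atp2a2 and Slc8a1 of its group. Cardiomyocyte markers were abundant in every heart, with 10 of 10 listed markers detected in all 21 libraries and a summed level of 53540 to 73620 CPM (counts relative to library size, scaled by TMM factors). Markers of central neurons summed to 155 to 255.3 CPM in chow Renin hearts and to 51.07 to 88.72 CPM in the other 3 groups. Atrial markers summed to between 41.92 and 1228 CPM and ranged widely within every group, and skeletal muscle markers summed to at most 1.874 CPM. In bulk tissue, fewer cells of a type and less RNA per cell cannot be told apart. Each library was taken as a separate mouse, since the series description counts mice per group.

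Between genes, levels were compared in TPM, which corrects for transcript length. Atp2a2, the SR calcium pump SERCA2, was the highest of the 10 with a mean of 2370 TPM over the 21 libraries. Pln, phospholamban, followed with 1627 TPM. The proteins of the store lumen came next, with 382 TPM for Hrc and 281.2 TPM for Casq2. Jph2, junctophilin 2, had 121.9 TPM, Trdn, triadin, 94.1 TPM and Ryr2, the ryanodine receptor, 80.4 TPM. The lowest means were 34.8 TPM for the L-type channel subunit Cacna1c, 20.9 TPM for the kinase Camk2d and 19.3 TPM for the exchanger Slc8a1. Over the 21 libraries the ranges of most neighbours in this order overlapped, and only Pln and Hrc, Casq2 and Jph2, and Ryr2 and Cacna1c did not. The highest Slc8a1 level (50.4 TPM) also lay above the lowest Ryr2 level (47.4 TPM). By the group means of HFD Renin 3 pairs of neighbours changed places, with Casq2 (mean 363.6 TPM) above Hrc (332.8 TPM), Ryr2 (89.8 TPM) above Trdn (88.8 TPM) and Slc8a1 (27.4 TPM) above Camk2d (23.5 TPM). All 3 pairs changed places in HFD Renin replicates 1, 2 and 5, and none did in replicates 3 and 4.

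The promoters of the 3 members on which the HFD Renin results turn are shown first, as the 250 bases before the gene's start on the gene's strand, 5′ to 3′, from RefSeq on GRCm38.p6. Capitals mark matches, on either strand, to the E-box (CANNTG), the GATA motif (AGATAA), the TATA box (TATAAA), the M-CAT motif (CATTCC), the MEF2 site and the CArG box. The Hrc window lies at chr7:45335019-45335268 on the plus strand, the Pln window at chr10:53337436-53337685 on the plus strand and the Casq2 window at chr3:102086165-102086414 on the plus strand.
Hrc: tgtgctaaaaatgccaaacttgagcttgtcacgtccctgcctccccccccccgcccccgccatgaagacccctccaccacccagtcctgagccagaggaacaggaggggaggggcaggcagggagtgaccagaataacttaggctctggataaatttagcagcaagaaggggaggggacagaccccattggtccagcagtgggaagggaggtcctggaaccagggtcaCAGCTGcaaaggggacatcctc
Pln: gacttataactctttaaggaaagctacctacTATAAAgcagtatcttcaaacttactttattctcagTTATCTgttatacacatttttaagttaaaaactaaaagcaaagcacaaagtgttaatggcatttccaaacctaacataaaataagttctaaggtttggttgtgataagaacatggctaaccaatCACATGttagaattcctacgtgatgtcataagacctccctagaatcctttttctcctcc
Casq2: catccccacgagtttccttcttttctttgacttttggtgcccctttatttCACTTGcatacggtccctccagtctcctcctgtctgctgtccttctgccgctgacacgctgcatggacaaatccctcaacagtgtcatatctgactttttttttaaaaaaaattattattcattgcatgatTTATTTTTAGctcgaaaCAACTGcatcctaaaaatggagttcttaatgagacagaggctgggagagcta
The Hrc window held 1 E-box, the Pln window 1 E-box, 1 GATA motif and 1 TATA box, and the Casq2 window 2 E-boxes and 1 MEF2 site. The table held 11 promoter windows for 8 of the 10 members, with none for Trdn or Atp2a2. An E-box was in 10 of the 11 windows and in 66.2% of the 32851 promoter windows of the same length. The 11 are not all separate, since the 2 windows of Jph2 overlap over most of their length and Cacna1c has 3. The GATA motif was in 2 of 11 windows against 9.99% of all, the TATA box in 1 against 12.4%, and the MEF2 site in 1 against 2.92%. No member window held an M-CAT motif or a CArG box, which 12.6% and 1.47% of all windows held. These matches are descriptions of sequence and show no binding.

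**Figure D1:**
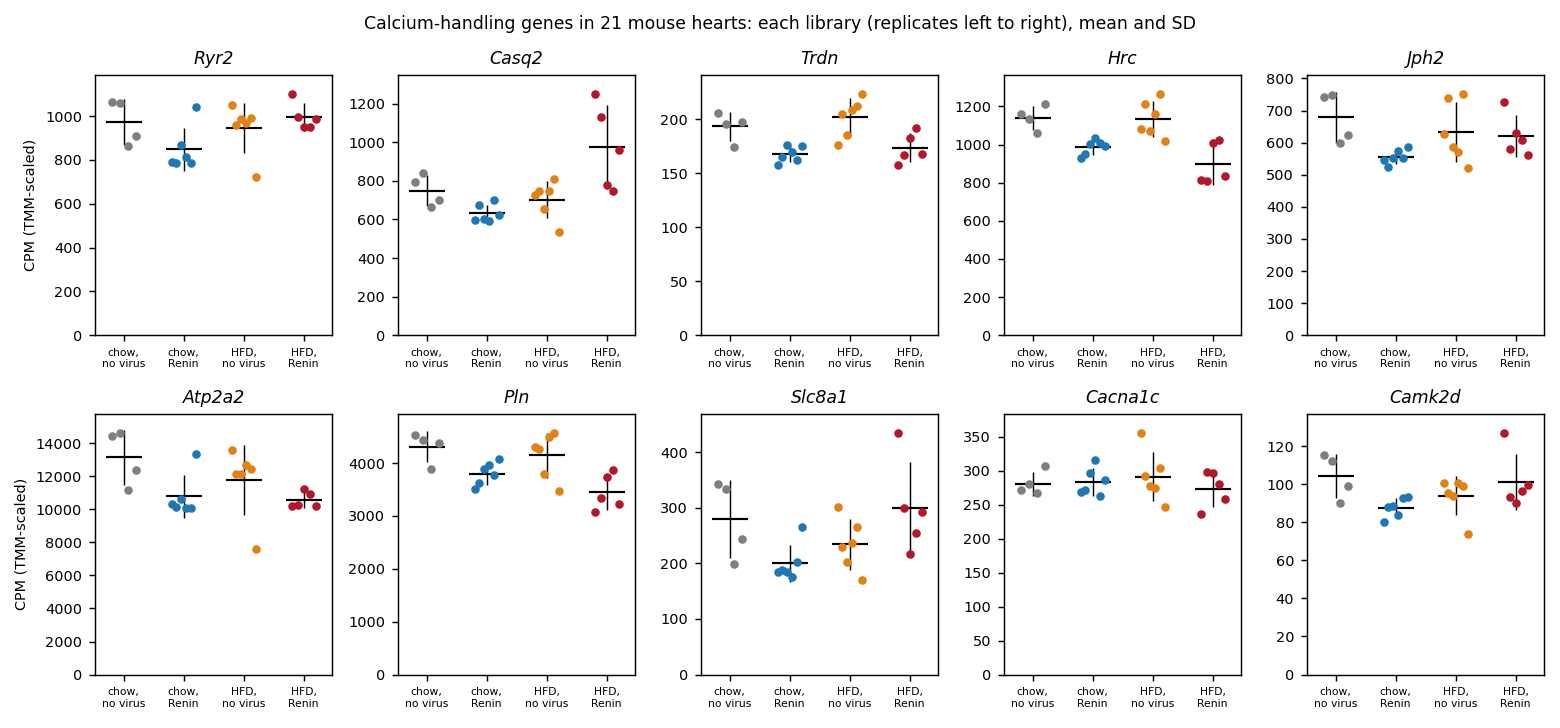
Level of each member gene (vertical axis, CPM, from 0) in each library (points, replicates left to right) by group, with the group mean (bar) and SD (line). Hrc and Pln sit lower in HFD Renin hearts than in chow control hearts without overlap, and 3 HFD Renin hearts stand above every chow control heart for Casq2. How many of all genes separate these groups was not counted.

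The first comparison set the double-hit hearts against chow controls. In HFD Renin hearts, 2 of the 10 genes were called lower and none higher, at an adjusted p under 0.05 in edgeR's quasi-likelihood test, beside 8.31% of all 15216 genes tested (4.05% higher and 4.26% lower). The genes called were Hrc, which binds calcium inside the store, and Pln, the brake on the pump. Hrc was at 1158, 1136, 1060 and 1211 CPM in the chow controls and at 813.6, 809.4, 1007, 1022 and 834.2 CPM in the HFD Renin hearts. All 5 HFD Renin hearts lay below all 4 chow controls, and replicates 3 and 4 of HFD Renin stood nearest to them. How many of all genes separated the groups in this way was not counted, here or in the comparisons below. The log2 fold change of Hrc was -0.35 (SE 0.08, adjusted p = 0.009246, edgeR). Pln was at 4536, 4426, 3886 and 4387 CPM in the chow controls and at 3069, 3330, 3733, 3859 and 3229 CPM in the HFD Renin hearts. The groups again did not overlap, with a gap between the lowest control and the highest HFD Renin heart that was small beside the spread. The log2 fold change of Pln was -0.32 (SE 0.09, adjusted p = 0.0213, edgeR). Leaving out chow control replicate 1, 2 or 4, or HFD Renin replicate 1 or 5, ended the Pln call, with adjusted p of 0.0736, 0.0672, 0.0645, 0.0635 and 0.0602 in that order in edgeR. The Hrc call held in each such fit, with an adjusted p of at most 0.0435.

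Other store proteins did not pass in this comparison. Casq2, calsequestrin, the main calcium buffer of the SR, was at 794.9, 838.8, 664.8 and 699.6 CPM in the chow controls and at 1251, 1130, 781, 749 and 961.8 CPM in the HFD Renin hearts. Replicates 1, 2 and 5 were above every control. For Casq2 the log2 fold change was 0.38 (SE 0.13, adjusted p = 0.0745, edgeR). It passed in 5 of 22 settings, with adjusted p of 0.0406 at 20 CPM, 0.0468 with the replicate block, 0.0473 with the atrial covariate, and 0.0324 and 0.0204 without HFD Renin replicate 3 or 4. Atp2a2 was at 14430, 14620, 11200 and 12370 CPM in the chow controls and at 10230, 10290, 11220, 10950 and 10220 CPM in HFD Renin hearts, 4 of which lay below every control. For Atp2a2 the log2 fold change was -0.31 (SE 0.12, adjusted p = 0.118, edgeR). For the release channel and its anchors, log2 fold changes were 0.03 for Ryr2, -0.16 for Trdn and -0.13 for Jph2, and none passed. At the cell surface, they were 0.10 for Slc8a1 and -0.04 for Cacna1c, and that of Camk2d, the CaMKII isoform of the heart, was -0.04. The median of the 10 was -0.08, beside 0.01 over all genes tested. Of 10 cardiomyocyte markers, 6 were called lower and none higher in the same comparison, with a median log2 fold change of -0.33, close to those of Hrc and Pln, and their part in the result was not tested. A circadian clock score, the mean log2 level of Dbp, Tef, Nr1d1, Nr1d2, Per1, Per2, Per3 and Ciart less that of Arntl, Npas2, Clock and Cry1, also moved with the groups (means of 3.90, 3.25, 3.53 and 3.05 in chow control, chow Renin, HFD control and HFD Renin). With that score as a covariate the Hrc call ended (log2 fold change -0.12, adjusted p = 0.937, edgeR), as did the Pln call (log2 fold change -0.10, adjusted p = 0.959). That fit called 0 of all 15216 genes in this comparison, where 1265 were called without the covariate. The clock score was 3.699 to 4.055 in chow control and 2.508 to 3.373 in HFD Renin hearts. These ranges do not overlap, so score and group cannot be told apart.

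In the authors' deposited table, whose comparison is headed as HFD with virus and whose reference group is not given, the log2 values were -0.29 for Hrc (adjusted p = 0.001426) and -0.26 for Pln (adjusted p = 0.005402). In the authors' deposited table the adjusted p was 0.07136 for Casq2, 0.1049 for Atp2a2 and 0.4133 or more for the other 6.

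**Figure D2:**
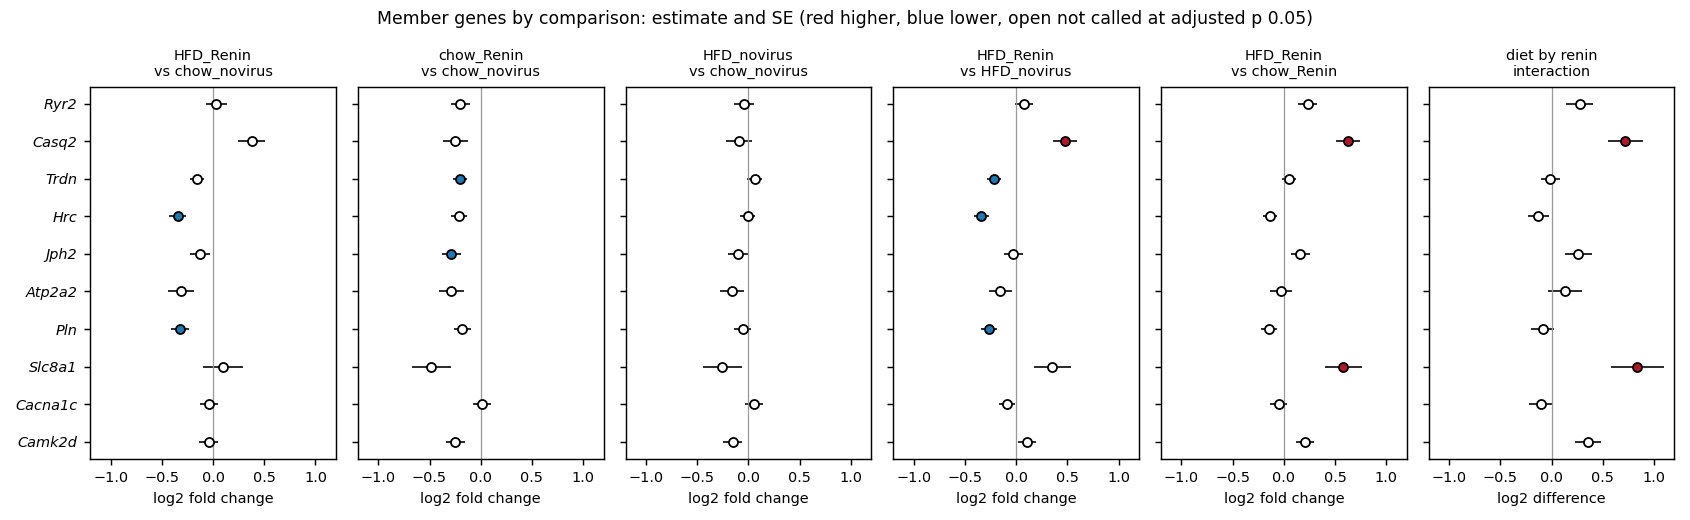
Log2 fold change (horizontal axis) of each member gene, with its SE, in the 5 comparisons between groups and the diet by renin interaction; filled points were called at an adjusted p under 0.05 (red higher, blue lower). Hrc and Pln are filled blue where HFD Renin is set against chow control or HFD control, and Casq2 is filled red wherever HFD Renin is set against HFD control or chow Renin.

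Renin on chow was next set against chow control. Here 9 of the 10 log2 fold changes were negative, as were 8458 of all 15216, and 2 genes were called lower, beside 13.5% of all genes tested (10.1% higher and 3.36% lower). Jph2, which holds the SR close to the t-tubule, was at 742.9, 748.6, 599.9 and 622.6 CPM in the chow controls and at 545.2, 524.9, 552.8, 575.3, 551.4 and 585.1 CPM in chow Renin hearts. All 6 chow Renin hearts were below all 4 controls, which themselves split into a higher and a lower pair. The Jph2 log2 fold change was -0.29 (SE 0.09, adjusted p = 0.0451, edgeR). Its call ended without control replicate 1 or 2, the higher pair (adjusted p of 0.202 and 0.215, edgeR). Both hearts and HFD Renin replicate 1 carry the lowest animal numbers in the column names of the gene matrix. What these numbers stand for is not given, and their part in the levels was not tested. Trdn, which ties calsequestrin to the release channel, was at 206, 196, 174.6 and 197.6 CPM in the controls and between 157.4 and 176.6 CPM in chow Renin hearts. Control replicate 3 lay inside the chow Renin range. Trdn thus had a log2 fold change of -0.21 (SE 0.07, adjusted p = 0.0486, edgeR). Hrc also separated the groups, with all 6 chow Renin hearts (930.1 to 1034 CPM) below all controls, but its adjusted p was 0.071 (log2 fold change -0.21, edgeR). The log2 fold changes of the others were -0.48 for Slc8a1, -0.29 for Atp2a2, -0.25 for Camk2d, -0.25 for Casq2, -0.20 for Ryr2, -0.18 for Pln and 0.01 for Cacna1c. The median of the 10 was -0.23, beside -0.03 over all genes, and 8 had an unadjusted p under 0.05, as had 3821 of the 15216. Of the 10 cardiomyocyte markers, 2 were called lower and none higher here, with a median log2 fold change of -0.18, and their part in the result was not tested.

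The count in this comparison moved with single libraries. Without replicate 6 of chow Renin and replicate 6 of HFD control, both left out after their values were seen, 6 members were called lower, adding Ryr2 (adjusted p = 0.008433), Atp2a2 (0.00139), Slc8a1 (0.04) and Camk2d (0.0447) to Jph2 and Trdn in edgeR. That fit called 2194 of all 15143 genes tested, 597 of them lower. Over all single libraries left out, between 0 and 5 members were called, and between 1512 and 2268 of all genes. Jph2 kept its call in 8 of 24 settings and Trdn in 7 of 24, so both stood at the edge of the threshold. All 8 listed central neuron markers were called higher in the same comparison, with a median log2 fold change of 2.34. The neuron score was 3.664 to 4.53 in chow Renin hearts and at most 2.735 in any other group. In contrasts that hold chow Renin, score and group thus cannot be told apart. With the neuron score as a covariate no member was called, and 48 of all 15216 genes were, against 2048 without it. In that fit Trdn was at -0.27 on the log2 scale (adjusted p = 0.829) and Jph2 at -0.20 (adjusted p = 0.927, edgeR). With the clock covariate, 3 members were called lower, Jph2, Casq2 (-0.60, adjusted p = 0.0205) and Slc8a1 (-0.94, adjusted p = 0.0282, edgeR), and 1275 of all genes were called.

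Diet alone was compared in HFD control and chow control hearts. No member was called and none had an unadjusted p under 0.05, beside 0.0657% of all genes called in edgeR (0.0131% higher and 0.0526% lower). DESeq2 called no member either, and 111 of 15432 genes. Log2 fold changes were -0.26 for Slc8a1, -0.16 for Atp2a2, -0.15 for Camk2d, -0.10 for Jph2, -0.09 for Casq2, -0.06 for Pln, -0.04 for Ryr2, -0.01 for Hrc, 0.05 for Cacna1c and 0.06 for Trdn, with a median of -0.07. The largest in size, that of Slc8a1, had an SE of 0.19.

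Renin on the high-fat diet, HFD Renin against HFD control, gave 4 calls among the 10, 1 higher and 3 lower, beside 11.1% of all genes tested (6.07% higher, 5.08% lower). The gene called higher was Casq2. It was at 727.6, 748.4, 652, 745, 808 and 533.3 CPM in the HFD controls, against 749 to 1251 CPM in HFD Renin. Replicates 1, 2 and 5 of HFD Renin were above every HFD control, and replicates 3 and 4 were within the control range. The log2 fold change was 0.47 (SE 0.12, adjusted p = 0.0125, edgeR), and without HFD Renin replicate 1 the adjusted p was 0.07. Hrc was at 1080, 1213, 1072, 1159, 1266 and 1020 CPM in the HFD controls, and 4 of 5 HFD Renin hearts were below all of them. Its log2 fold change was -0.34 (SE 0.07, adjusted p = 0.004996, edgeR). Pln was at 4309, 4257, 3788, 4484, 4565 and 3468 CPM in the HFD controls, where replicates 3 and 6 lay inside the HFD Renin range. Its log2 fold change was -0.27 (SE 0.08, adjusted p = 0.0286, edgeR). Trdn was at 176.1, 204.7, 185.6, 208.7, 212.2 and 223.7 CPM in the HFD controls and at 158.1, 167.2, 182.7, 191.8 and 168.2 CPM in HFD Renin hearts, 3 of which were below every control. Its log2 fold change was -0.22 (SE 0.07, adjusted p = 0.0336, edgeR), and it kept its call in 13 of 25 settings. The Pln call held in 17 of 25 settings, that of Casq2 in 22 and that of Hrc in 23. The clock score was 3.316 to 3.684 in HFD control and 2.508 to 3.373 in HFD Renin hearts. These ranges barely overlap, so score and group can hardly be told apart. With the clock score as a covariate none of the 4 was called, nor was any of the 15216 genes, where 1696 were called without it. Their log2 fold changes were then 0.19 for Casq2, -0.22 for Hrc, -0.15 for Pln and -0.10 for Trdn. Fitted on these 2 groups alone, none of the 4 was called either, with 549 of 14403 genes called and adjusted p of 0.0526 for Hrc, 0.0722 for Casq2, 0.113 for Trdn and 0.117 for Pln in edgeR. The other 6 genes had log2 fold changes of 0.35 for Slc8a1, 0.11 for Camk2d, 0.07 for Ryr2, -0.03 for Jph2, -0.09 for Cacna1c and -0.15 for Atp2a2. Without both replicate 6 libraries, Atp2a2 was called lower as well (log2 fold change -0.27, adjusted p = 0.0169, edgeR) and Trdn was not (adjusted p = 0.0553). In this comparison 2 cardiomyocyte markers were called higher and 4 lower, and their part in the result was not tested.

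Diet in renin-treated mice, HFD Renin against chow Renin, gave 2 members called higher and none lower, beside 22.6% of all genes tested (9.8% higher and 12.8% lower). Casq2 was at 599.2, 674.8, 602.7, 591, 698.9 and 624.3 CPM in chow Renin hearts, all below the lowest HFD Renin heart. The Casq2 log2 fold change was 0.63 (SE 0.12, adjusted p = 0.0003487, edgeR). Slc8a1, the exchanger that takes calcium out of the cell, was at 183.6, 187.4, 184.8, 175.7, 202.6 and 265.3 CPM in chow Renin and at 433.9, 299.8, 216, 254.5 and 292.3 CPM in HFD Renin. There were 3 HFD Renin hearts above every chow Renin heart, and chow Renin replicate 6 lay above the other 2. The log2 fold change was 0.58 (SE 0.18, adjusted p = 0.0232, edgeR), and without HFD Renin replicate 1 the adjusted p was 0.13. The Slc8a1 call also ended without chow Renin replicate 1, 3 or 4, with adjusted p of at least 0.0504. It held in 16 of 25 settings, and ended without a filter (adjusted p = 0.0541), with the clock covariate (0.129), length offsets (0.0597) or the gene matrix (0.0748). The Ryr2 value of 0.23 (adjusted p = 0.0643, edgeR) passed without chow Renin replicate 6 (adjusted p = 0.0122). The other log2 fold changes were 0.21 for Camk2d, 0.16 for Jph2, 0.05 for Trdn, -0.03 for Atp2a2, -0.05 for Cacna1c, -0.14 for Hrc and -0.14 for Pln. Of the cardiomyocyte markers, 2 were called higher and 4 lower. Of other heart cell markers, 1 of 6 for fibroblasts and 2 of 5 for endothelium were called higher, and 0 of 5 for macrophages and 0 of 4 for smooth muscle were called. Fibroblast markers summed to 446.9 to 685.3 CPM in chow Renin and 680.7 to 1012 CPM in HFD Renin, endothelial markers to 558.5 to 715.1 and 657.3 to 827.8 CPM, and macrophage markers to 66.91 to 78.85 and 77.32 to 87.95 CPM. The part of these markers in the result was not tested. All 8 central neuron markers were called lower in this comparison, and with the neuron score as a covariate neither member was called, with an adjusted p of 0.997 for each. In that fit Casq2 had a log2 fold change of 0.45 and Slc8a1 one of 0.10, and 44 of all 15216 genes were called, against 3440 without the covariate.

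The interaction asks whether renin acted differently on the high-fat diet than on chow. It was called for Casq2 (0.72 on the log2 scale, SE 0.17, adjusted p = 0.006515, edgeR) and for Slc8a1 (0.84, SE 0.26, adjusted p = 0.0442, edgeR), beside 10.4% of all genes tested (3.14% higher and 7.3% lower). For Casq2 the renin effect was -0.25 with chow and 0.47 with HFD. For Slc8a1 it was -0.48 with chow and 0.35 with HFD, neither of which passed alone. The Casq2 interaction was called in 33 of 34 settings, the exception being the central neuron covariate (0.50, adjusted p = 0.895). That fit called 30 of all 15216 interactions, against 1589 without it, and all 8 central neuron markers had a called interaction, with a median of -2.44. Of the cardiomyocyte markers, 2 had an interaction called higher and none lower. That of Slc8a1 was called in 13 of 34, and with the neuron covariate it was 0.24 (adjusted p = 0.978). The interaction of Hrc was -0.13 (adjusted p = 0.522, edgeR) and that of Pln -0.09 (adjusted p = 0.719), so a difference in their renin effect between diets was not shown. That of Camk2d was 0.36 (adjusted p = 0.0799, edgeR) and passed with the clock covariate (adjusted p = 0.035). The others were 0.27 for Ryr2, 0.26 for Jph2, 0.13 for Atp2a2, -0.01 for Trdn and -0.10 for Cacna1c, and none passed.

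**Figure D3:**
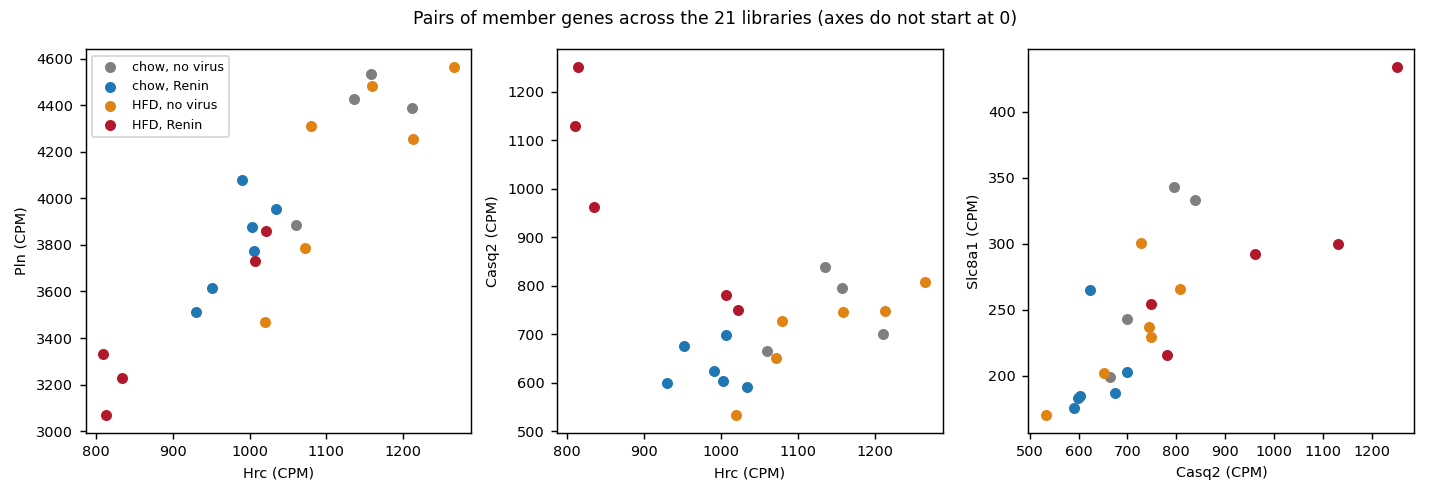
Levels in CPM of Pln against Hrc, Casq2 against Hrc and Slc8a1 against Casq2 in the 21 libraries (points, coloured by group; axes do not start at 0). Pln and Hrc lie along a single line through all groups, and 3 HFD Renin hearts stand apart at high Casq2 and low Hrc.

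Across the 21 libraries some members varied together and others did not. Hrc and Pln had a Pearson r of 0.92 in log2 CPM, and 0.85 after group means were taken off. Slc8a1 and Camk2d had an r of 0.90, Ryr2 and Slc8a1 one of 0.87, and Casq2 and Slc8a1 one of 0.83. Trdn and Slc8a1 had an r of -0.01, Pln and Slc8a1 one of 0.03 and Ryr2 and Hrc one of 0.06. The highest for Cacna1c was 0.55, with Pln. Casq2 and Hrc had a Pearson r of -0.41, and -0.22 within groups, but a Spearman rho of 0.01. These are descriptions over libraries that share a pipeline and normalization, and single libraries such as HFD control replicate 6 weigh on them. Among 5551 other genes of at least 20 CPM, those most like each member over the 21 libraries were Fam174b and Pfkm for Hrc (r of 0.95 and 0.94), Sdha and Mccc1 for Pln (0.94 and 0.93), Afg3l2 and Wdr1 for Casq2 (0.96 and 0.95), and Fsd2 and Dyrk1a for Slc8a1 (0.94 and 0.93). They were Ncoa4 and Rhot1 for Ryr2 (0.93 and 0.92), Aes and Atp5l for Trdn (0.94 and 0.91), Fblim1 for Jph2 (0.91), and Prkaa2 and Tmem186 for Camk2d (both 0.92). For Atp2a2 the most alike were Cacnb2, the channel's beta subunit, and Pdha1 (both 0.90), and for Cacna1c Acacb and Clpx (0.83 and 0.82).

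The balance of pump and brake was read from the TPM ratio of Atp2a2 to Pln. It was 1.52 ± 0.12 (SD, n = 4) in chow control, 1.401 ± 0.13 (SD, n = 6) in chow Renin, 1.41 ± 0.17 (SD, n = 6) in HFD control and 1.53 ± 0.08 (SD, n = 5) in HFD Renin. No comparison passed the two-sided exact permutation test, with adjusted p from 0.26 to 0.762 over 10 tests of 2 ratios. The ratio of Slc8a1 to Atp2a2, of efflux to uptake, differed by 0.64 on the log2 scale between HFD Renin and chow control (exact permutation p = 0.127, adjusted p = 0.302), with 3 of 5 HFD Renin hearts above every control. It differed by 0.86 on the log2 scale between HFD Renin and HFD control (exact permutation p = 0.0217, adjusted p = 0.108) and by 0.82 between HFD Renin and chow Renin (exact permutation p = 0.0173, adjusted p = 0.108), and 3 of 5 HFD Renin hearts were above every heart of each reference group. Neither passed after adjustment. Against chow control it differed by -0.18 in chow Renin (exact permutation p = 0.476) and by -0.23 in HFD control (exact permutation p = 0.4). TPM also depends on transcript length. The estimated share of the 3180-base transcript Slc8a1-202 was 36.1% in chow control, 31.0% in chow Renin, 21.6% in HFD control and 47.7% in HFD Renin. From read counts, HFD Renin log2 fold changes of Slc8a1 were 0.10, 0.35 and 0.58 against chow control, HFD control and chow Renin. Those of Atp2a2 were -0.31, -0.15 and -0.03 in the same order.

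Transcripts of the members were described by their share of the gene's TPM, which the quantifier estimates from reads that overlapping transcripts share. Atp2a2-202, with 998 codons, the length of the cardiac pump SERCA2a, held 86.5% of Atp2a2 on average, and Atp2a2-201, with 1044 codons, the length of SERCA2b, held 12.3%. The share of Atp2a2-201 was 12.5% ± 2.32 (SD, n = 4) in chow control, 12.5% ± 0.33 (SD, n = 6) in chow Renin, 10.5% ± 3.39 (SD, n = 6) in HFD control and 14.1% ± 2.12 (SD, n = 5) in HFD Renin. Replicate 6, at 3.87%, lowered the HFD control mean, where the other 5 were at 10.7% to 13.2%. Ryr2 was split between the full-length Ryr2-201 (46.5%) and Ryr2-207 (45.2%), a model of 3086 bases that begins 460 kb into the gene. Replicate 6 of HFD control again stood apart, with 19.2% for Ryr2-207 against 41.3% to 51.0% in the rest of its group. Slc8a1 was held by Slc8a1-204 (50.5%), Slc8a1-202 (33.3%) and Slc8a1-206 (15.9%). The share of Slc8a1-202 ran from 0% in HFD control replicate 6 to 65.7% in HFD Renin replicate 1.

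Trdn was held by Trdn-202 (45.1%), with 293 codons, and by the retained-intron transcript Trdn-204 (35.3%). Casq2-201 held 91.5% of Casq2, Hrc-201 99.7% of Hrc, Jph2-201 97.1% of Jph2 and Pln-201, which encodes the 52 residues of phospholamban, 87.2% of Pln. Camk2d-202 and Camk2d-226 held 52.9% and 14.7% of Camk2d. Of Cacna1c, Cacna1c-223 held 27.9%, Cacna1c-207 24.2%, Cacna1c-212 13.7%, Cacna1c-226 11.8% and Cacna1c-211 11.3%, and the first and last of these are processed transcripts without a reading frame.

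Relative use was tested for 62 member transcripts among 34564. The planned test, edgeR's diffSpliceDGE, called 1 member transcript, Ryr2-202, lower in chow Renin than in chow control, higher in HFD Renin than in chow Renin, and in the interaction, beside 0.341%, 0.304% and 0.448% of all transcripts tested. It called none in HFD Renin against chow control (0.391% of all), in HFD control against chow control (0.388%) or in HFD Renin against HFD control (0.576%), where 1, 2 and 3 member transcripts had an unadjusted p under 0.05. On simulated data this test called many transcripts with no planted difference, mostly ones with reads in few libraries. Ryr2-202 is of that kind, with reads in 4 of 21 libraries (134.3 and 169.3 in chow control replicates 3 and 4, 127.2 in HFD control replicate 5 and 75.91 in HFD Renin replicate 2), so its calls are not taken as a difference between groups. A test with a spread for each transcript, limma on the log2 share, was therefore added after the data were seen. It called 0 of the 62 in HFD Renin against chow control (0.0174% of all transcripts), HFD control against chow control (0.0174%), HFD Renin against HFD control (0.026%), HFD Renin against chow Renin (0.318%) and the interaction (0.0579%), where the smallest member adjusted p was between 0.0684 and 0.4 and 5, 4, 10, 5 and 5 transcripts had an unadjusted p under 0.05. Ryr2-202 was called in no contrast. In chow Renin against chow control it called 1, beside 0.388% of all: Trdn-202, whose share was 42.1% ± 2.15 (SD, n = 4) in chow control and 46.7% ± 2.24 (SD, n = 6) in chow Renin (log2 difference 0.22, adjusted p = 0.0398, limma). The ranges overlapped, and HFD control hearts, at 46.5% ± 2.15 (SD, n = 6), had a log2 difference from chow control of 0.21 (adjusted p = 0.256, limma).

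**Figure D4:**
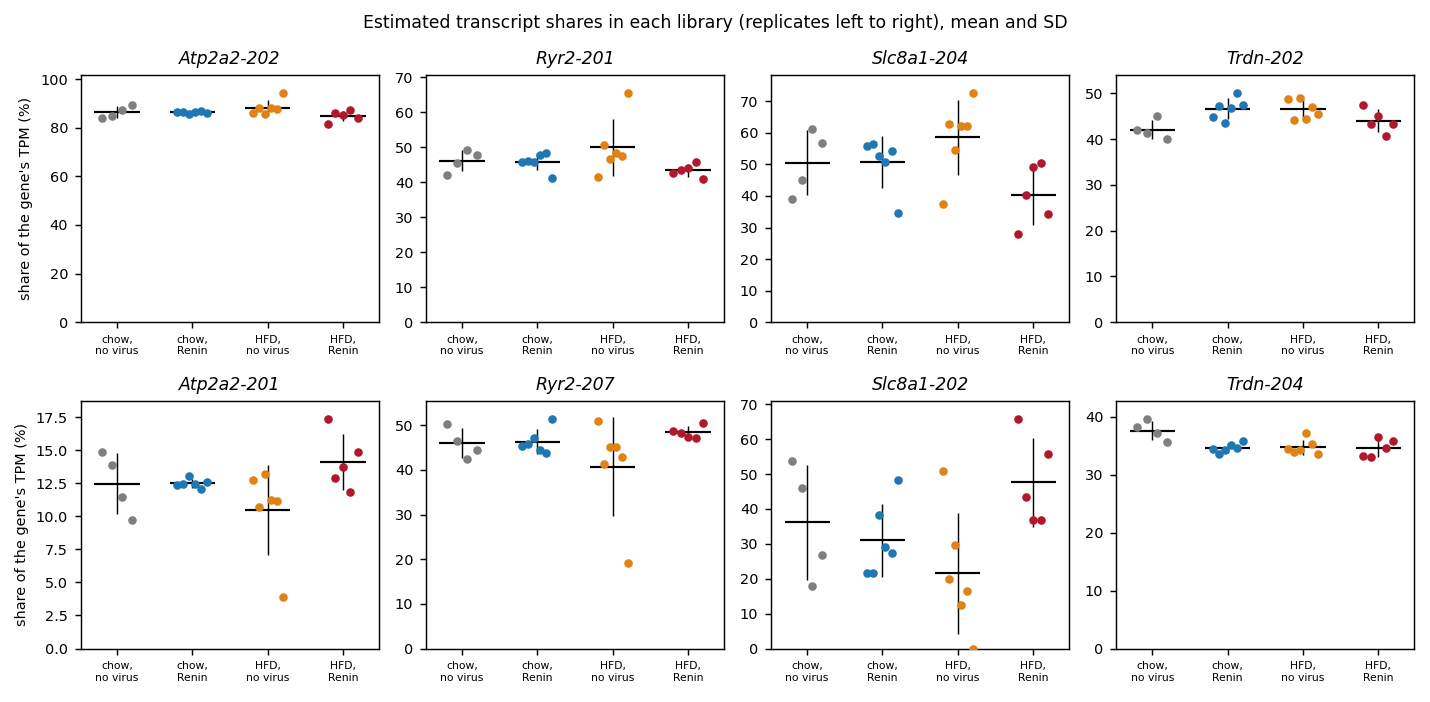
Share of the gene's TPM (vertical axis, %, from 0) of the 2 leading transcripts of Atp2a2, Ryr2, Slc8a1 and Trdn in each library (points, replicates left to right), with the group mean (bar) and SD (line). Replicate 6 of HFD control, the rightmost point of its group, is apart in Atp2a2-201 at 3.87% and in Ryr2-207 at 19.2%.

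A wider list of 82 calcium genes, 81 of them tested, placed the members among their partners. In HFD Renin against chow control, 4 of the 81 were called higher and 2 lower, beside 4.05% and 4.26% of all genes. By role, 1 of 19 release unit genes was called higher and none lower, 0 of 8 tested uptake genes were called, 1 of 19 sarcolemma genes was called higher and 1 lower, 1 of 15 kinase and phosphatase genes was called lower, 1 of 5 t-tubule genes and 1 of 9 mitochondrial calcium genes were called higher, and 0 of 6 store-operated entry genes were called. Among those lower was Pde4d, a cyclic AMP phosphodiesterase (log2 fold change -0.43, adjusted p = 0.025, edgeR). Those higher were Ryr1, the skeletal muscle ryanodine receptor (2.66, adjusted p = 0.008434), Slc8a2, an exchanger known from brain (0.60, adjusted p = 0.03), Dysf, dysferlin (0.30, adjusted p = 0.0358), and Micu2, a gatekeeper of the mitochondrial uniporter (0.30, adjusted p = 0.0151). Leaving out single libraries ended the call of Slc8a2 for 7 of 9 libraries (adjusted p 0.0512 to 0.114), of Dysf for 7 (0.06 to 0.0976), of Pde4d for 6 (0.0568 to 0.106) and of Micu2 for 2 (0.0539 and 0.0726, without chow control replicate 2 or HFD Renin replicate 1). The libraries that ended the first 3 calls were chow control replicates 1, 2 and 4 and HFD Renin replicates 1 and 5 for all 3, with HFD Renin replicate 2 for Slc8a2 and Pde4d, HFD Renin replicate 3 for Slc8a2, and chow control replicate 3 and HFD Renin replicate 4 for Dysf. With length offsets Dysf was at 0.19 (adjusted p = 0.407), and with the neuron covariate Slc8a2 was at 0.47 (adjusted p = 0.0786) and Pde4d at -0.39 (adjusted p = 0.0539). None of the named calls held with the clock covariate. Ryr1 was low throughout, at 0.54 ± 0.10 CPM (SD, n = 4) in chow control and 3.44 ± 3.68 CPM (SD, n = 5) in HFD Renin, an SD larger than the mean. The partners that did not pass were Asph, which encodes junctin (0.25, adjusted p = 0.0979), Atp2b1, a plasma membrane calcium pump (0.18, adjusted p = 0.0557), Cacnb2 (-0.22), Tmem38a (-0.15), Mcu (-0.12), Fkbp1b (-0.08), Cacna2d1 (0.01) and the pump inhibitor Sln (-0.72, SE 2.09). Sln, itself one of the genes known from atria, varied widely within groups, at a median of 0.18 CPM and a mean of 18.4 ± 36.5 CPM (SD, n = 4) in chow control.

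**Figure D5:**
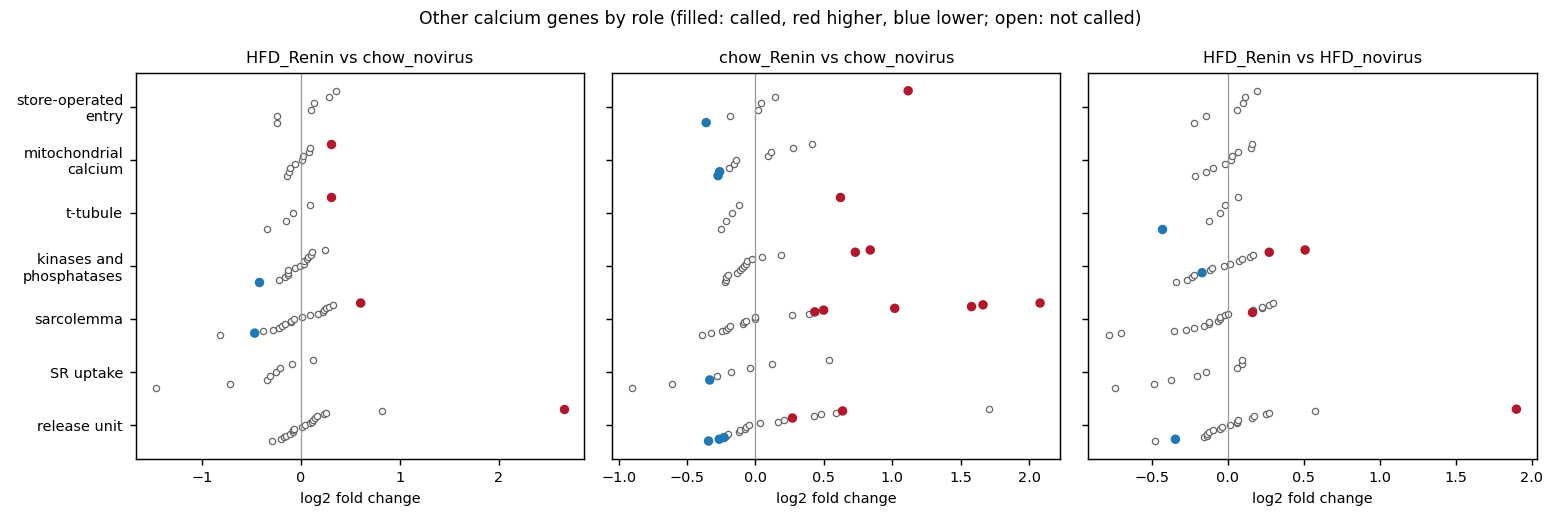
Log2 fold change (horizontal axis) of the 81 tested genes of the wider calcium list by role (rows) in 3 comparisons, with called genes filled (red higher, blue lower). In chow Renin hearts 6 sarcolemma genes are filled red, and in HFD Renin hearts few points are filled and most lie near 0.

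In chow Renin against chow control, 12 of the 81 were called higher and 7 lower, beside 10.1% and 3.36% of all genes, with 6 of 19 sarcolemma genes higher. The largest were Atp2b2 (2.08), Slc8a2 (1.66), Slc8a3 (1.58), Orai2 (1.12), Cacnb3 (1.02) and Camk2a (0.84), with adjusted p from 6.617e-08 to 0.002576 in edgeR. Atp2b2, Slc8a2 and Camk2a are known for high expression in nervous tissue, and the central neuron markers given above were higher in the same hearts. With the neuron score as a covariate none of the 6 was called (adjusted p 0.493 to 0.954), and 48 of all 15216 genes were. The log2 fold changes were then 1.42 for Orai2, 0.94 for Cacnb3, 0.83 for Slc8a2, 0.51 for Slc8a3, 0.37 for Atp2b2 and -0.13 for Camk2a. Tmem38a, a cation channel of the SR (-0.23, adjusted p = 0.0401), and Mcu, the pore of the mitochondrial uniporter (-0.27, adjusted p = 0.0402), were called lower, and Atp2b1 was called higher (0.43, adjusted p = 2.667e-06). The calls of Tmem38a and Mcu each ended for 8 of 10 libraries left out in turn (adjusted p 0.0599 to 0.21 and 0.0529 to 0.199), held for both without chow control replicate 3, and held also without chow Renin replicate 2 for Tmem38a and 6 for Mcu.

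In HFD Renin against HFD control, 4 of the 81 were called higher and 3 lower, beside 6.07% and 5.08% of all genes. Ryr1 (1.90, adjusted p = 0.013), Prkar1a and Prkar2a, regulatory subunits of protein kinase A (0.51, adjusted p = 0.0147, and 0.27, adjusted p = 0.0469), and Atp2b1 (0.16, adjusted p = 0.0439) were higher in edgeR. Tcap, telethonin, a Z-disc protein linked to t-tubules (-0.43, adjusted p = 0.0168), the inositol trisphosphate receptor Itpr3 (-0.34, adjusted p = 0.0234) and Camk2g (-0.17, adjusted p = 0.0479) were lower. HFD Renin replicate 1 or 2 left out ended the calls of Prkar1a, Tcap, Itpr3, Prkar2a, Camk2g and Atp2b1, with adjusted p from 0.0507 to 0.196, and replicate 2 that of Ryr1 (adjusted p = 0.069). Without HFD Renin replicate 5 those of Tcap, Itpr3, Prkar2a, Camk2g and Atp2b1 ended, and without replicate 3 that of Camk2g. HFD control libraries left out ended 4 of these calls, that of Itpr3 for 1 library (replicate 6), of Camk2g and Atp2b1 for 3 each and of Prkar2a for 5. With length offsets Camk2g was at 0.02 (adjusted p = 0.931). Prkar1a was at 410.2 ± 68.8 CPM (SD, n = 6) in HFD control and 583.7 ± 137 CPM (SD, n = 5) in HFD Renin. In HFD control against chow control none of the 81 was called, with 11 at an unadjusted p under 0.05.

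In HFD Renin against chow Renin, 9 of the 81 were called higher and 15 lower, beside 9.8% and 12.8% of all genes. Those of largest change were lower, namely Atp2b2 (-1.79), Slc8a3 (-1.65), Camk2a (-1.06), Slc8a2 (-1.06), Ppp1r1a (-0.89) and Camk2b (-0.86). All 8 central neuron markers were called lower here, with a median of -1.94. With the neuron covariate, which left 44 of all genes called, none of the 6 was called (adjusted p of 0.997 for each), with -0.37 for Atp2b2, -0.78 for Slc8a3, -0.26 for Camk2a, -0.36 for Slc8a2, -0.46 for Ppp1r1a and 0.03 for Camk2b. Asph was called higher (0.30, adjusted p = 0.0126, edgeR), and Atp2b1 lower (-0.26, adjusted p = 0.0006804). The Asph call ended without chow Renin replicate 1 (adjusted p = 0.0586) or HFD Renin replicate 1 (adjusted p = 0.109). The interaction was called for 16 of the 81, 3 higher and 13 lower, beside 3.14% and 7.3% of all genes, and its largest sizes were in Slc8a3 (-2.36), Atp2b2 (-2.20), Slc8a2 (-1.43), Camk2a (-1.07), Ppp1r1a (-1.02), a protein phosphatase inhibitor, and Cacnb3 (-1.02). That of Atp2b1 was -0.27 (adjusted p = 0.02, edgeR). All 8 central neuron markers had interactions of the same sign, and with the neuron covariate none of the 6 was called (adjusted p 0.793 to 0.991), with -1.26 for Slc8a3, -0.93 for Cacnb3, -0.54 for Slc8a2, -0.49 for Ppp1r1a, -0.39 for Atp2b2 and -0.05 for Camk2a.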

How the data were processed

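Heart RNA of 21 mice was analysed from per-library transcript tables and a gene matrix. Per the submitters' processing notes, Salmon 1.10.2 and DESeq2 1.40.2 were used with GRCm38 (mm10). Per the file headers, the deposited transcript tables hold estimated counts (expected counts, not normalized) and TPM. The authors' deposited gene matrix holds a signal per library beside the log2 fold changes and p-values of their own comparison, and its normalization is not given in the sources used here. The design assumed raw counts; estimated counts, summed per gene and rounded, took their place. Of 119215 transcripts, 98% matched GENCODE M21 by identifier; unmatched ones held 0.854% to 0.925% of reads and were left out. Totals of 18.7 to 29.3 M reads (mega reads) set the precision.

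Gene tests used edgeR 4.0.16 under R 4.3.3, with filterByExpr, TMM and the quasi-likelihood test in a single fit over 21 libraries with a term per group, adjusted by Benjamini-Hochberg over 15216 genes. SEs are the absolute log2 fold change over the square root of F. Ratios were tested by exact permutation (scipy 1.17.1). Transcript use was tested with diffSpliceDGE. On simulated data the gene test recovered planted changes with few false calls, but diffSpliceDGE recovered few and most of its calls were false. Its values are given as planned, and limma 3.58.1 on the log2 of transcript CPM over gene CPM (0.5 added to each), which held its error rate on the same data, was added after the data were seen. DESeq2 1.42.0, other scalings and filters, covariates and left-out libraries were alternatives.

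The members and lists were chosen with earlier results of these data known. Every member is named in every comparison. Of the wider list, the 6 called genes of largest change per comparison and 8 fixed partners are named, the partners in the first comparison and elsewhere where called. Transcripts are named at a mean share of at least 10% or when called. Likeness takes the 2 non-member genes of highest Pearson r among those of at least 20 CPM. Of the genes these rules name, some are not reported here.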

Additional observations from a re-analysis of the deposited data

Results flagged for a closer look

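Among 128 groups of 4 to 6 values examined, 16 held a library whose gap to its nearest neighbour was large beside the group's range (Dixon's criterion). Chance flags about 1 in 20 groups. These groups share libraries and include transcripts of the same gene, so the 16 flags are not independent of each other. In HFD control, replicate 6 was the low one for Ryr2 (722.2 CPM), Atp2a2 (7593 CPM), Camk2d (73.71 CPM) and the shares of Cacna1c-212 (3.22%), Atp2a2-201 (3.87%) and Ryr2-207 (19.19%), and the high one for the share of Atp2a2-202 (94.34%). In chow Renin, replicate 6 was the high one for Ryr2 (1041 CPM), Atp2a2 (13360 CPM), Slc8a1 (265.3 CPM) and the ratio of Slc8a1 to Atp2a2 (0.009066), and the low one for the shares of Slc8a1-204 (34.44%) and Casq2-201 (84.88%). In HFD Renin, replicate 1 was high for Camk2d (126.8 CPM) and low for the share of Pln-201 (84.09%). In HFD control, replicate 1 was high for the ratio of Slc8a1 to Atp2a2 (0.009571).

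The renin effect differed between diets by the interaction test of edgeR for the members Casq2 (0.72 on the log2 scale) and Slc8a1 (0.84), and for 6 named genes of the wider list, Ppp1r1a (-1.02), Cacnb3 (-1.02), Slc8a2 (-1.43), Slc8a3 (-2.36), Atp2b2 (-2.20) and Camk2a (-1.07). All 8 central neuron markers had interactions called lower, with a median of -2.44, and none of the 8 genes named here was called with the neuron score as a covariate (adjusted p 0.793 to 0.991). That fit called 30 of 15216 interactions, against 1589 without it. The neuron score itself sets chow Renin hearts apart, so score and interaction cannot be fully told apart.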

How the results depend on the processing

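Of the members' log2 fold changes recomputed under the alternatives, 1408 kept their direction and side of the threshold, 97 lost and 27 gained the threshold, and 8 reversed. A reported value within 1 SE of 0 was given no direction to reverse. Where the clock or neuron covariate took away every member's call, at most 48 of 15216 genes were called. Both scores moved with the groups, so score and group cannot be fully told apart there. Members called in HFD Renin against chow control were 0 with the clock covariate, 3 with Casq2 added at 20 CPM, with the replicate block or the atrial covariate, and 1 to 3 with single libraries left out. In chow Renin against chow control they were 0 with upper quartile or RLE factors, no filter, a filter at 20 CPM, the neuron or atrial covariate or the gene matrix, 1 without mitochondrial genes, with the replicate block or with length offsets, 3 with the clock covariate, 5 from the compared groups alone, 6 without both replicate 6 libraries, and 0 to 5 with single libraries left out. In HFD control against chow control they were 0 throughout. In HFD Renin against HFD control they were 0 with the clock covariate or the compared groups alone, 3 with no filter or the block, and 1 to 4 with single libraries left out. Against chow Renin they were 1 without a filter, 4 at 20 CPM, 1 with the clock covariate, length offsets or the gene matrix, 0 with the neuron covariate, and 1 to 3 with single libraries left out. Interactions numbered 1 with upper quartile or RLE factors, no filter, 20 CPM, length offsets or the matrix, 0 with the neuron covariate, 3 with the clock covariate (Camk2d added), and 1 to 3 with single libraries left out. The cause was not tested. Over all genes, calls in HFD Renin against chow control were 1265 of 15216 as reported, 0 with the clock covariate and 871 of 5565 at 20 CPM. They were 1326 with the block, 1478 with the atrial covariate and 566 to 1723 with single libraries left out. Over all genes, calls in chow Renin against chow control were 1889 and 1985 of 15216 with upper quartile and RLE factors, 1779 of 23718 without a filter, 192 of 5565 at 20 CPM, 2106 with the atrial covariate, 999 of 12896 in the matrix and 2499 of 14838 from the compared groups alone. In HFD Renin against HFD control they were 549 of 14403 from those groups alone and 696 to 2394 with single libraries left out. Against chow Renin they were 2991 without a filter, 955 at 20 CPM, 2733 with length offsets and 1891 in the matrix. Interactions over all genes numbered 1589 as reported, 1481 and 1532 with upper quartile and RLE factors, and 1359 of 23718 without a filter. They numbered 178 of 5565 at 20 CPM, 1251 with length offsets and 775 of 12896 in the matrix. With the neuron covariate they numbered 30, with the clock covariate 2172, and with single libraries left out 1220 to 1951.

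The log2 fold changes that reversed had been up to 0.84 (Camk2a) and -0.86 (Camk2b), with -0.48 for Slc8a1 and 0.38 for Casq2 among members. After reversal they were at most 0.13 in size, with adjusted p of at least 0.931. Under the clock covariate they were Casq2 (-0.11), Trdn (0.0604) and Asph (-0.0861) in HFD Renin against chow control and Slc8a1 (-0.00522) and Camk2d (-0.0259) against HFD control. Under the neuron covariate they were Slc8a1 (0.0627) and Camk2a (-0.13) in chow Renin against chow control, Hrc (0.0266), Pln (0.0148) and Camk2b (0.0254) in HFD Renin against chow Renin, and the Hrc interaction (0.0786). Camk2g reversed against HFD control with length offsets (0.0234) and the gene matrix (0.0153). The log2 ratio of Atp2a2 to Pln in HFD Renin against chow control ran from -0.0198 to 0.0611 with single libraries left out.

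The labels do not say that equal replicate numbers pair animals, and such a pairing was not tested. The 28 same-number pairs had correlations of -0.20 to 0.38 (median 0.07, 9 over 0.1). The 136 other pairs had correlations of -0.23 to 0.36 with a lower median (-0.02, 14 over 0.1). Of 21 libraries, 6 correlated best with a library of their own number. With the replicate block, 3, 1, 0, 3, 2 and 2 members were called in the 6 contrasts in the order of the report. Of all 15216 genes, the block fits called 1326, 2246, 0, 1577, 3670 and 1615 in the same order. Member transcripts called by diffSpliceDGE were 0 at 5 CPM in the 3 contrasts that had 1, and with the block 1 in HFD control against chow control and 0 in HFD Renin against chow Renin; limma gave 0 in that contrast and in the interaction. With single libraries left out they ran from 1 to 2 in chow Renin against chow control, 0 to 2 in HFD Renin against HFD control or chow Renin and 0 to 1 in the interaction. The diffSpliceDGE fits inherit its fault on simulated data. The share of all transcripts called in these alternative fits was not counted, so the member counts cannot be set against it.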
